A study of Saccharomyces cerevisiae with 8 samples.

Results

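The change in relative copy number between 15 and 30 min after release was measured along the genome of budding yeast cells that carried Mcm6-SuOn. The members are windows of the genome with a value at both times, 22916 of the 24133 overlapping windows of 1 kb on 16 chromosomes. None of them was chosen for the size of its change, but windows without a value were left out. The lowest read count behind a value was 601 at either time. The later culture was Mcm6-SuOn at 30 min and the earlier one was Mcm6-SuOn at 15 min, with 1 library each. Control cells, which carried Mcm6-ctrl, are given at the same times, also with 1 library each, and had 22870 windows with a value.

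All of these cultures were diploids of the W303 strain with both copies of the CDC7 gene replaced by the temperature-sensitive allele cdc7-4. Each also carried Mcm6-aid::HIS3/+, the tagged Mcm6 that auxin (IAA) degrades, and ADH1-TIR::URA/+, which supplies the TIR protein this degradation needs. The cells of interest had Mcm6-SuOn::KAN/+ and the control cells had Mcm6-ctrl::KAN/+. Cultures were held with nocodazole, given auxin, warmed to inactivate Cdc7 and then cooled rapidly to let them enter S phase. The cdc7-4 allele and the nocodazole, auxin and temperature steps were thus shared by both genotypes. The labels name 1 strain identifier for each genotype and no separate cultures or clones, so that no difference below has a replicate check and no test between times or genotypes could be made. Intervals are exact binomial at 95%, cover counting error only, and do not measure the spread between cultures.

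Replication of the budding yeast genome starts at many defined origins, which are loaded with the MCM helicase before S phase. Mcm6 is a subunit of this helicase, and Cdc7 is the kinase that phosphorylates MCM so that an origin can fire. Mcm6-SuOn is known from the study as a form made to raise sumoylation of MCM, the attachment of the small protein SUMO. Once an origin has fired, a pair of forks moves away from it, so copy number first peaks at the origin and the raised region then broadens. Origins fire in a reproducible order, and regions far from early origins are copied late.

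The measure used throughout is the 30/15 ratio, which is the relative copy number of a window at 30 min over that at 15 min, divided by the genome median. Both times had been set over the same 0 min count, which cancels. A ratio below 1 therefore says that a window gained less than the median window in this interval, and not that DNA was lost. A level is the relative copy number of a window at 1 time divided by the genome median of that time. Reads in the windows with values, each counted once, came to 16833191 in Mcm6-SuOn at 30 min and 13789197 at 15 min. In the control they came to 17801753 at 30 min and 15967647 at 15 min. A median window of Mcm6-SuOn held 1444 reads at 30 min, against 1185 at 15 min.

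In Mcm6-SuOn cells the change over this interval was small in most windows. The middle 50% of windows had 30/15 ratios between 0.959 and 1.043, and the central 98% lay between 0.867 and 1.160. The lowest window was at 0.777 and the highest at 1.321. On the log2 scale the SD over windows was 0.091, of which read counting alone would give 0.057. Counting thus made up 38.9% of the variance, and an SD of 0.071 remained without it. In the control the SD was 0.119, counting would give 0.054, and 0.106 remained. The remaining spread in Mcm6-SuOn was 0.667 of that in the control.

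Windows past 1.1-fold were about equally frequent in both directions in the unsmoothed values. In Mcm6-SuOn, 1563 windows (6.82%) were higher at 30 min by at least 1.1-fold and 1387 (6.05%) were lower. The balance did not hold in other settings, with 302 higher and 20 lower in the authors' smoothed column, and 72 higher and 27 lower past 1.2-fold. In the control, 2876 windows (12.6%) were higher and 2742 (12%) were lower. Since these percentages are over all windows measured, they serve as the background for the counts that follow. Neighbouring windows in Mcm6-SuOn resembled each other less than in the control. The correlation of log2 ratios between windows 5 kb apart was 0.260 in Mcm6-SuOn and 0.559 in the control. These are over 22230 and 22186 pairs that share libraries but no reads. At 20 kb the correlation was 0.099 in Mcm6-SuOn and 0.267 in the control. Counting made up 38.9% of the variance in Mcm6-SuOn and 20.3% in the control, and its part in this difference was not tested.

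**Figure D1:**
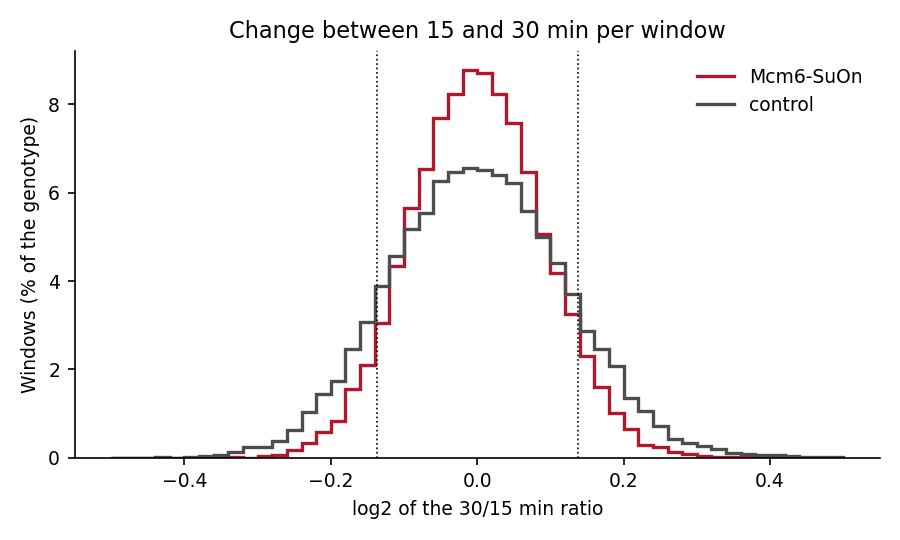
Share of windows (vertical axis, % of the genotype's windows) by log2 of the 30/15 ratio (horizontal axis, steps of 0.02) in Mcm6-SuOn (red) and control (grey), with dotted lines at 1.1-fold in either direction. The Mcm6-SuOn distribution is the narrower one, with an SD of 0.091 against 0.119 in the control.

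A pattern shared by most sites lay around places where copy number peaked in control cells at 15 min. These 115 sites, local maxima of the authors' smoothed control profile with a prominence of at least 0.1, are called early sites below and share no library with the Mcm6-SuOn ratio. At the sites themselves, within 2 kb, the median 30/15 ratio in Mcm6-SuOn was 0.994 (quartiles 0.972 and 1.014), and 53 of 115 sites lay above 1. Between 5 and 8 kb away it was 1.008, and between 8 and 12 kb it was 1.023 with 82 sites above 1. It was highest at 12 to 16 kb, at 1.0301 (quartiles 1.004 and 1.052), where 90 of 115 sites lay above 1. From 16 to 20 kb it was 1.026, and from 20 to 30 kb it was back at 1.000. Relative to the genome median, the early sites were thus slightly lower at 30 min than at 15 min, and the belts on either side of them were higher.

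Summed reads also put the belts above the centres. Within 2 kb of the sites the pooled ratio in Mcm6-SuOn was 0.990 (0.986 to 0.994), and it was 1.026 both at 12 to 16 kb (1.0235 to 1.0288) and at 16 to 20 kb (1.0236 to 1.029). The levels behind it show a peak that flattened. At the sites the median level was 1.023 at 30 min and 1.036 at 15 min, while at 12 to 16 kb it was 1.012 at 30 min and 0.984 at 15 min. The belt at 8 to 20 kb exceeded the site centre at 88 of 115 sites (76.5%), by a median of 0.034. In the control it did so at 81 of the same sites (70.4%), by a median of 0.029. With every second window of the genome outside the outer 20 kb taken as a centre in turn, the same difference was above 0 at 50.7% of 11251 windows, with a median of 0.001.

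Control cells also had belts, with other values at the site centres and another distance of the highest step. In the control the median ratio at the same sites was 1.019 within 2 kb, 1.055 at 8 to 12 kb, 1.043 at 12 to 16 kb and 0.993 at 20 to 30 kb. In steps of 1 kb, the highest median stood at 14 to 15 kb in Mcm6-SuOn, with 1.036, and at 11 to 12 kb in the control, with 1.064. Mcm6-SuOn was below the control at 79 of 115 sites within 2 kb, by a median difference of -0.030, and at 89 sites at 8 to 12 kb, by -0.036. Beyond 16 kb the order turned, with median differences of 0.009 at 16 to 20 kb and 0.013 at 20 to 30 kb. The control 15 min library chose these sites and is the denominator of the control ratio, which by itself lowers the control ratio at the centres. It does not enter the Mcm6-SuOn ratio. These differences between genotypes could not be tested.

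Sites from a later control profile had, as a set, a median above 1 at their centres. At 67 sites called in the same way on the control 40 min profile, which shares no library with either ratio and was added after the values were seen, the median within 2 kb was 1.019 in Mcm6-SuOn and 1.041 in the control. At 12 to 16 kb from these later sites it was 1.015 in Mcm6-SuOn and 1.024 in the control. Of the 67 sites, 20 had a 15 min site within 5 kb, and their median within 2 kb was 0.993 in Mcm6-SuOn and 1.0504 in the control. The other 47 had no such neighbour, and their median was 1.026 in Mcm6-SuOn (32 of 47 above 1) and 1.040 in the control. Summed reads at these 47 sites gave 1.024 (1.018 to 1.031) in Mcm6-SuOn and 1.044 (1.038 to 1.0504) in the control. With 135 maxima of the control 30 min profile it was 1.004 within 2 kb and 1.019 at 12 to 16 kb in Mcm6-SuOn. With the 68 maxima of the Mcm6-SuOn 40 min profile as centres, the median ratio was 1.009 within 2 kb and 1.010 at 12 to 16 kb.

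**Figure D2:**
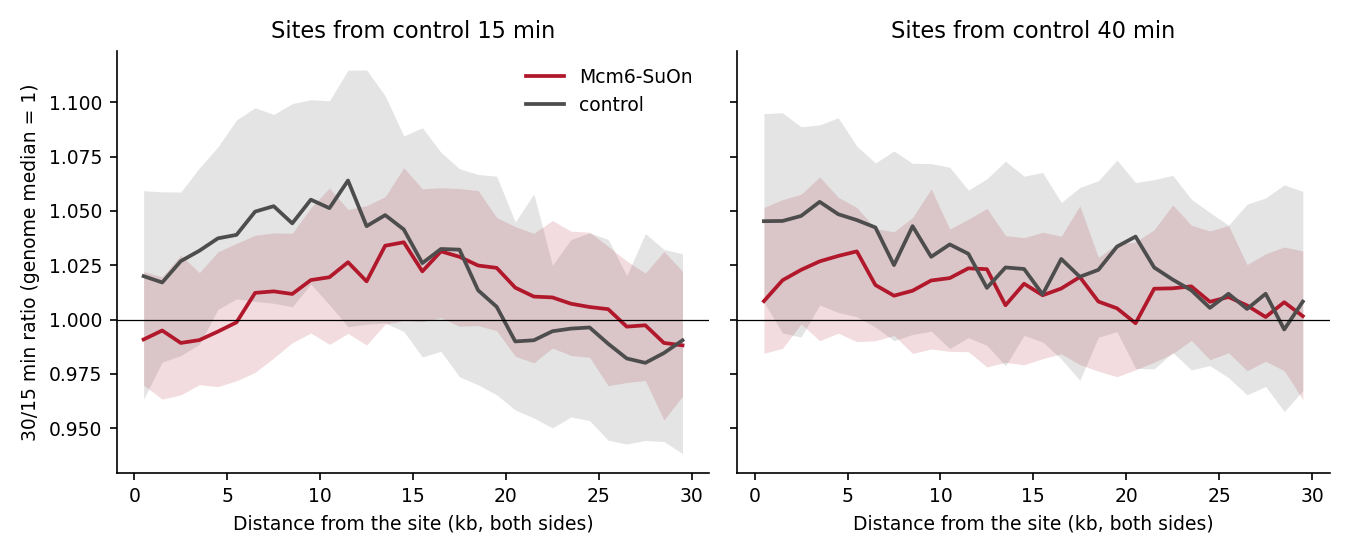
Median 30/15 ratio (vertical axis, genome median at 1) by distance from a site in kb, both sides together (horizontal axis, steps of 1 kb), in Mcm6-SuOn (red) and control (grey), with bands from the lower to the upper quartile over sites. Around the 115 control 15 min sites (left) Mcm6-SuOn starts below 1 and is highest at 14 to 15 kb, and around the 67 control 40 min sites (right) it is highest nearer the centre, at 5 to 6 kb, with 1.031.

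Stretches of adjacent windows that moved together were listed as zones. A zone of gain has at least 10 adjacent windows whose running median over 11 windows is 5% or more above the genome median, and a zone of loss is its mirror image below it. The running median passed the upper limit in 13.8% of Mcm6-SuOn windows and 24.7% of control windows, and the lower limit in 12.1% of Mcm6-SuOn windows and 25% of control windows. Mcm6-SuOn had 125 zones of gain, with 10.1% of the 22947 windows that have a running median, and 106 zones of loss, with 8.01%. The control had 167 zones of gain (21.7% of windows) and 158 of loss (21.6%). In Mcm6-SuOn the zones of gain were 5.5 to 37.5 kb long and covered 1220 kb in all, and the zones of loss were 5.5 to 42.5 kb long and covered 972 kb. The median length was 7.5 kb for both kinds. The pooled ratio had a median of 1.072 in the zones of gain (range 1.036 to 1.132) and 0.934 in the zones of loss (0.895 to 0.971). These values describe how the zones were chosen and carry no test.

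Zones of gain were frequent at some distance from early sites, where zones of loss were scarce. The centre of 71 of the 125 zones of gain (56.8%) was more than 5 and up to 20 kb from a control 15 min site, against 11 of 106 zones of loss (10.4%) and 28.3% of all windows. Only 4 zones of gain (3.20%) had their centre within 5 kb of such a site, against 15 zones of loss (14.2%) and 10.1% of windows. The median distance to the nearest site was 17.5 kb for zones of gain, 35.5 kb for zones of loss and 27.5 kb for all windows. Of the 115 sites, 17 (14.8%) had a zone of gain on both sides at that distance, and 42 (36.5%) on 1 side. Taking every second window outside the outer 20 kb as a centre, 3.18% had one on both sides and 23.2% on 1 side. No site had a zone of loss on both sides, against 3.11% of such windows.

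The 17 flanked sites show the pattern at single places, of which 4 are given here, chosen after their values were seen. On chromosome IV, the site at 554001 to 555000 had a level of 1.111 at 30 min and 1.097 at 15 min, with a ratio of 1.002 (0.961 to 1.045). To its left, 538001 to 553500 had a ratio of 1.091 (1.069 to 1.113), and to its right 560001 to 579000 had 1.093 (1.074 to 1.112). The site at chromosome X 414001 to 415000 stood at 1.094 at 30 min and 1.092 at 15 min, between zones with ratios of 1.090 and 1.101. At chromosome VII 658001 to 659000 the centre was lower at 30 min, with a ratio of 0.951 (0.911 to 0.993), and the zones beside it had ratios of 1.089 and 1.072. The site at chromosome IV 912001 to 913000 was itself higher, at 1.061 (1.015 to 1.109), with 1.096 on either side. In the last case the centre was below the zones beside it but above 1, so not every flanked site kept a level centre.

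Most zones of gain started below the genome median in Mcm6-SuOn, whose 15 and 30 min values chose them. At 15 min, 81 of the 125 had a median level below 1 in Mcm6-SuOn, and at 30 min 115 lay above 1. Crossing from below to above 1 was seen in 71 of them, while 44 were above 1 at both times. Choosing zones by their ratio favours low levels at 15 min and high ones at 30 min, so these counts carry no test. In the control, 62 of the 125 had a level above 1 at 15 min. In order of time (15, 30 and 40 min), the median level of the zones of gain in Mcm6-SuOn was 0.985, 1.055 and 1.020. In the control, whose values did not choose the zones, it was 0.999, 1.074 and 1.083. For zones of loss the medians in Mcm6-SuOn were 1.015, 0.942 and 0.965, and in the control 1.005, 0.931 and 0.930. The 40 min libraries are in no ratio used here. Their median level was thus higher in zones of gain than in zones of loss in both genotypes. Single zones of gain in Mcm6-SuOn went either way. From 15 to 40 min the level fell from 0.972 to 0.737 at chromosome I 189501 to 195500. It rose from 0.962 to 1.1865 at chromosome XII 414001 to 451500. The share of zones going either way was not counted.

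The change in Mcm6-SuOn correlated in place with that in the control and had a smaller spread. Across 22844 windows the log2 ratios of the genotypes, which share no library, correlated at r = 0.339 (Spearman 0.315), and across running medians at 0.549 (0.508). The slope of Mcm6-SuOn on control running medians was 0.341. Windows are not independent, and these values are descriptions. Of the 125 zones of gain, 78 (62.4%) overlapped a control zone of gain and 8 (6.4%) a control zone of loss. For comparison, control zones of gain hold 21.7% of windows and control zones of loss 21.6%, though a zone of many windows meets another more often than a single window does. The 78 shared ones correspond to 71 of the 167 control zones of gain (42.5%). Among zones of loss, 73 of 106 (68.9%) overlapped a control zone of loss, 3 (2.83%) a control zone of gain, and 60 of 158 control zones (38.0%) were overlapped in return. In the zones of gain the control ratio lay above 1 with its whole interval in 82 and below 1 in 10. In the zones of loss it lay below 1 in 81 and above 1 in 5.

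**Figure D3:**
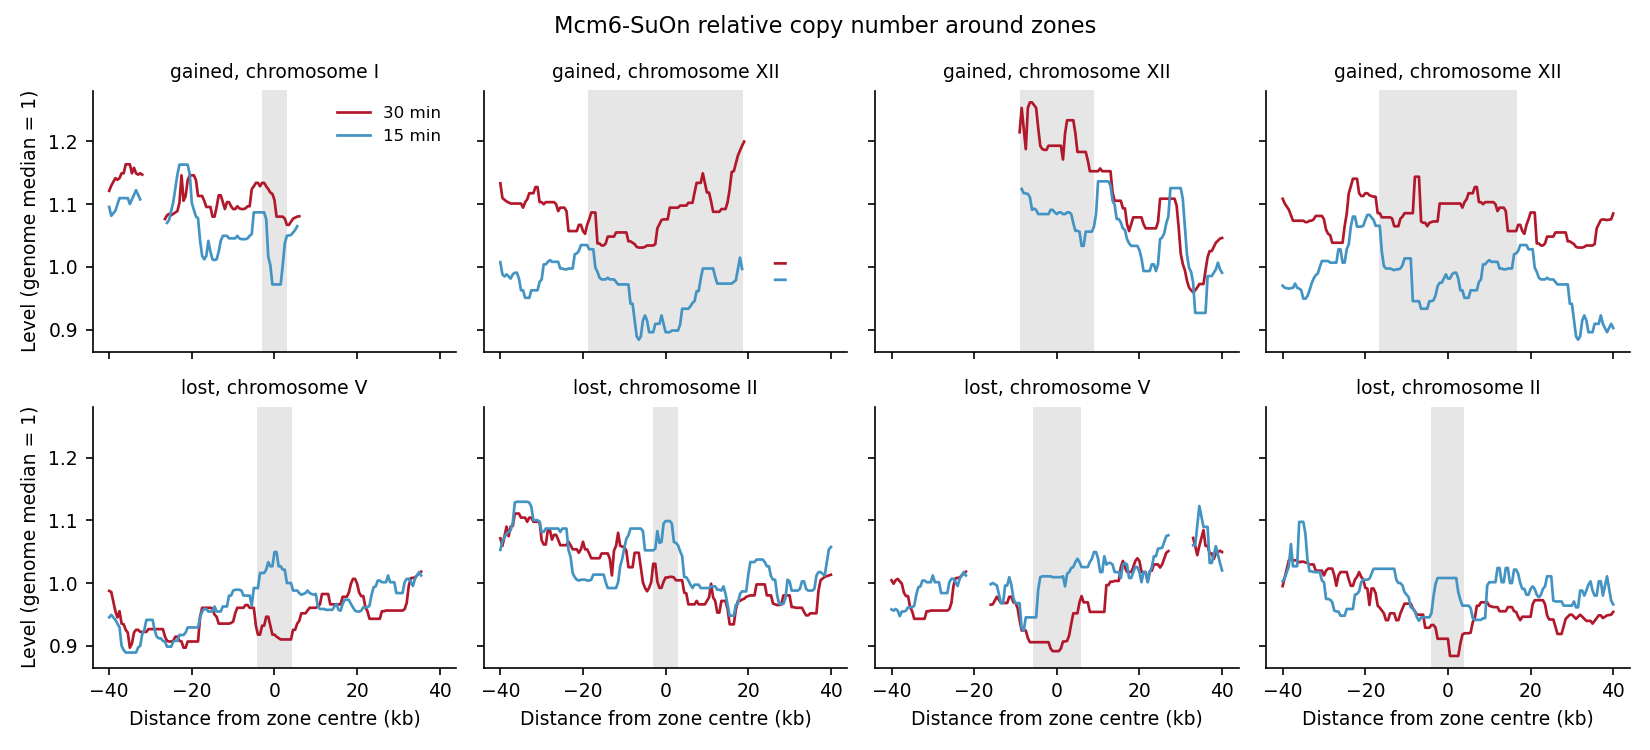
Level of relative copy number in Mcm6-SuOn (vertical axis, genome median at 1, running median over 11 windows) at 30 min (red) and 15 min (blue) by distance from the zone centre in kb (horizontal axis), for the 4 zones of gain with the highest and the 4 zones of loss with the lowest pooled ratio. Shading marks the zone, gaps are windows without a value, and the lines part inside the shading because zones were chosen for that.

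The zones with the highest pooled ratios lay mostly on chromosome XII. The highest of all was on chromosome I, at 189501 to 195500, with 5643 reads at 30 min and 4093 at 15 min. Its ratio was 1.132 (1.087 to 1.179), and the control ratio there was 1.097 (1.037 to 1.160). In order of time (15, 30 and 40 min), its level was 0.972, 1.106 and 0.737 in Mcm6-SuOn. In the control the level there was 1.735, 1.857 and 1.699. The level thus differed between genotypes far more than the ratio did, and the cause was not tested. Stretches of windows without a value lay farther out on either side of this zone. It is the shortest among the named zones of gain, so its interval is the widest. The next 4 were on chromosome XII, the chromosome that carries the ribosomal DNA array, and 3 of these lay close together. The one at 414001 to 451500 is the longest zone of gain, at 37.5 kb, with 45257 reads at 30 min and 32843 at 15 min. Its level was 1.075 at 30 min and 0.962 at 15 min. Its pooled ratio, from summed reads and not from these levels, was 1.131 (1.115 to 1.147), against 1.093 (1.079 to 1.108) in the control.

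The neighbouring zone at 378001 to 411500 had a level of 1.087 at 30 min and 0.987 at 15 min and a ratio of 1.115 (1.099 to 1.131). Farther left, 342501 to 366000 had a level of 1.075 at 30 min and 0.973 at 15 min and a ratio of 1.113 (1.095 to 1.132). In the control these had ratios of 1.188 (1.173 to 1.204) and 1.2001 (1.182 to 1.219). All 3 started below the genome median in Mcm6-SuOn and lay above it at 30 min. They were higher at 30 min in both genotypes, and the order of the genotypes differed between them.

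Zones near both ends of chromosome XII were also among the 8 highest. The zone at 12001 to 30000 had a ratio of 1.122 (1.1003 to 1.144) and the one at 1053501 to 1066000 had 1.103 (1.078 to 1.129). Their centres lay 21 and 18.7 kb from the chromosome end, and 76 and 236.5 kb from the nearest control 15 min site. On chromosome XIII, the zone at 907501 to 917500, 11.9 kb from the end, had a level of 1.252 at 30 min and 1.120 at 15 min and a ratio of 1.111 (1.082 to 1.140). At 40 min its Mcm6-SuOn level was 0.791. The control level there was 2.454 at 30 min and 1.904 at 15 min, with a ratio of 1.261 (1.218 to 1.306). The level thus differed between genotypes far more than the ratio did, and the part of the 0 min libraries in these levels was not tested.

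The remaining named zones of gain lay in chromosome interiors, each beside an early site. On chromosome XIII, 512001 to 529000 had a level of 1.064 at 30 min and 0.971 at 15 min. Its ratio was 1.104 (1.083 to 1.125) in Mcm6-SuOn and 1.135 (1.114 to 1.155) in the control. The zone at chromosome IV 914501 to 942500, named for its length of 28 kb, had a ratio of 1.096 (1.080 to 1.113) in Mcm6-SuOn and 1.189 (1.173 to 1.207) in the control. Its centre was 16 kb from a control 15 min site.

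Zones of loss with the lowest ratios were spread over 6 chromosomes. The lowest, at chromosome V 404001 to 412500, had 12213 reads at 30 min and 11200 at 15 min. Its level was 0.913 at 30 min and 1.024 at 15 min, with a ratio of 0.895 (0.872 to 0.918), against 0.953 (0.930 to 0.976) in the control. Unlike most zones of loss, it lay on a control 15 min site, with its centre 0.5 kb away. A further zone of chromosome V, at 460001 to 471500, had a ratio of 0.902 (0.880 to 0.924) and a control ratio of 0.909 (0.888 to 0.930). On chromosome II, 94501 to 100500 had a ratio of 0.901 (0.871 to 0.932) and a control ratio of 1.016 (0.983 to 1.0496), whose interval includes 1. The zone at 524501 to 532500 on that chromosome had 0.903 (0.877 to 0.929) in Mcm6-SuOn and 0.906 (0.882 to 0.931) in the control.

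The longest zone of loss covered 42.5 kb of chromosome I, from 60501 to 103000, with 58856 reads at 30 min and 53176 at 15 min. Its level was 0.962 at 30 min and 1.049 at 15 min. The ratio was 0.909 (0.898 to 0.919) in Mcm6-SuOn and 0.906 (0.896 to 0.916) in the control, so that the intervals of the genotypes overlapped. Chromosome VI held 3 of the named zones. The one at 254001 to 265000 had a ratio of 0.911 (0.892 to 0.929), 60001 to 79500 had 0.923 (0.908 to 0.938) and 83001 to 110500 had 0.924 (0.911 to 0.937). In the control these were lower still, at 0.855, 0.891 and 0.856. At chromosome XI 476001 to 494500 the ratio was 0.912 (0.896 to 0.928) in Mcm6-SuOn and 0.855 (0.840 to 0.870) in the control.

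With both intervals clear of 1, a single named zone went opposite ways in the genotypes. At chromosome IV 402501 to 409500 the level in Mcm6-SuOn was 1.032 at 30 min and 1.1001 at 15 min. The pooled ratio there was 0.914 (0.885 to 0.944). In the control the level was 1.160 at 30 min and 1.095 at 15 min, with a pooled ratio of 1.078 (1.047 to 1.111). Both genotypes stood at nearly the same level at 15 min. The nearest control 15 min site was 23 kb from its centre.

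Chromosomes differed, with 2 of the smallest lowest. The median ratio in Mcm6-SuOn was lowest on chromosome VI, at 0.958, followed by chromosome I at 0.975, and highest on chromosome XII, at 1.018. On chromosome VI the pooled ratio was 0.957 (0.953 to 0.962) in Mcm6-SuOn and the control median was 0.906, the lowest in that genotype as well. The level of chromosome VI in Mcm6-SuOn was 0.971 at 30 min and 1.009 at 15 min. On chromosome XII the pooled ratio was 1.022 (1.019 to 1.024) in Mcm6-SuOn, and the control median was 1.008. Over the 16 chromosomes, length and median ratio had a Spearman correlation of 0.782 in Mcm6-SuOn and 0.815 in the control, as a description of chromosomes that share 1 library at each time. Of the 16, 9 were below 1 in both genotypes and 6 above 1 in both. The exception was chromosome II, at 0.994 in Mcm6-SuOn and 1.008 in the control.

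Zones followed this order. Chromosome XII had 16 zones of gain, in 20.9% of its windows, and 3 zones of loss. Chromosomes VI and IX had no zone of gain. On chromosome VI, 8 zones of loss held 38.9% of its windows, and on chromosome I, 4 zones of loss held 31.5%. Chromosome X came second in gain, with 10 zones in 17.0% of its windows. Of the 1563 windows past 1.1-fold higher, 249 lay on chromosome XII, which holds 1982 of the 22916 windows. Of the 1387 windows past 1.1-fold lower, 65 lay there.

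**Figure D4:**
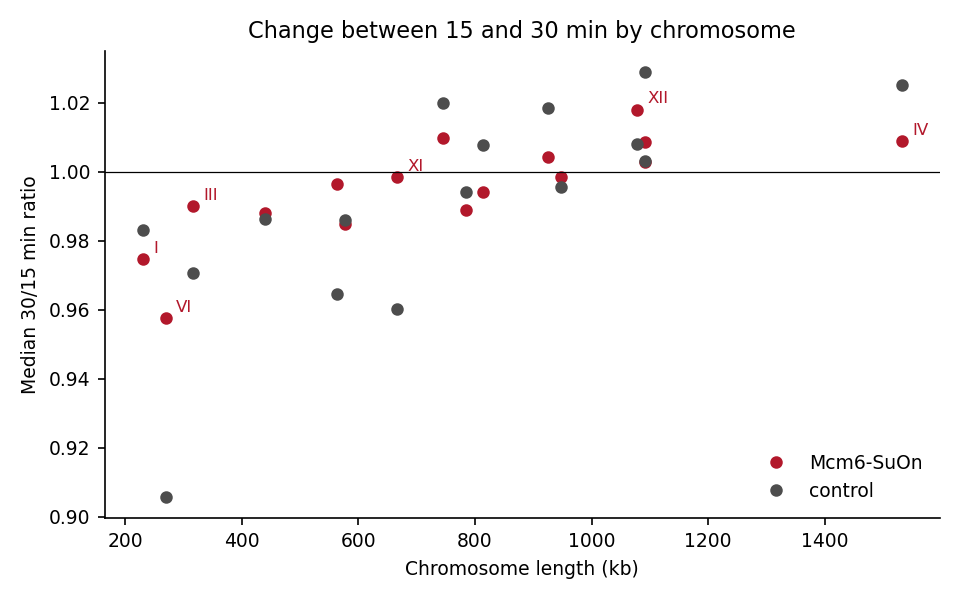
Median 30/15 ratio of each of the 16 chromosomes (vertical axis, genome median at 1) by chromosome length in kb (horizontal axis) in Mcm6-SuOn (red) and control (grey), with 6 chromosomes named beside their Mcm6-SuOn point. Chromosome VI is lowest in both genotypes, at 0.958 in Mcm6-SuOn and 0.906 in the control, and chromosome XII is highest in Mcm6-SuOn, at 1.018.

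Near chromosome ends, Mcm6-SuOn was higher at 30 min in a band 10 to 30 kb from the end and not at the very tips. The median ratio was 0.982 within 5 kb of an end (101 windows), 1.009 at 5 to 10 kb, 1.039 at 10 to 15 kb, 1.031 at 15 to 20 kb and 1.027 at 20 to 30 kb. From 30 to 50 kb it was 1.004, and beyond 100 kb it was 0.997. Over 10 to 30 kb, summed reads gave 1.027 (1.023 to 1.0299) in Mcm6-SuOn and 1.011 (1.008 to 1.014) in the control, so both were above 1. In the control the medians over the same steps were 0.928, 0.975, 0.996, 0.998 and 1.012, then 1.003 and 0.999. Within 30 kb of an end, 13.1% of the 1356 Mcm6-SuOn windows were past 1.1-fold higher, against 6.82% of all windows, and 3.39% were past it in the lower direction, against 6.05%. Of the zones of gain, 16 (12.8%) had their centre there, against 4 zones of loss (3.77%) and 5.97% of windows. In most of these 16, the Mcm6-SuOn level at 40 min was below that at 15 min. In order of time (15, 30 and 40 min) it was 1.1075, 1.209 and 0.969 at chromosome II 11001 to 17500. At chromosome VIII 8501 to 17500 it was 1.061, 1.1305 and 0.891. The exception was chromosome XV 21001 to 29500, with 0.963, 1.057 and 0.975. The cause of the fall by 40 min was not tested.

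The band was not shared by all ends. Of 30 chromosome ends with at least 5 windows at 10 to 30 kb, the pooled ratio in Mcm6-SuOn lay above 1 with its whole interval at 20 and below 1 at 2. Those 2 are the ends of chromosome VI, with 0.957 (0.942 to 0.973) on the left and 0.935 (0.921 to 0.949) on the right. In the control 15 ends lay above 1 and 9 below. Both genotypes were above 1 at 12 ends. Mcm6-SuOn was above and the control below 1 at 3 ends. These were the left end of chromosome III, at 1.044 in Mcm6-SuOn and 0.979 in the control, its right end, at 1.035 and 0.951, and the left end of chromosome XV, at 1.039 and 0.968. The highest ratio was at the left end of chromosome XII, with 1.117 (1.096 to 1.139) in Mcm6-SuOn and 1.108 (1.087 to 1.129) in the control. Windows were dropped more often here, 28.8% within 30 kb of an end against 3.01% elsewhere, and repeats near ends cannot be told apart in these counts.

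**Figure D5:**
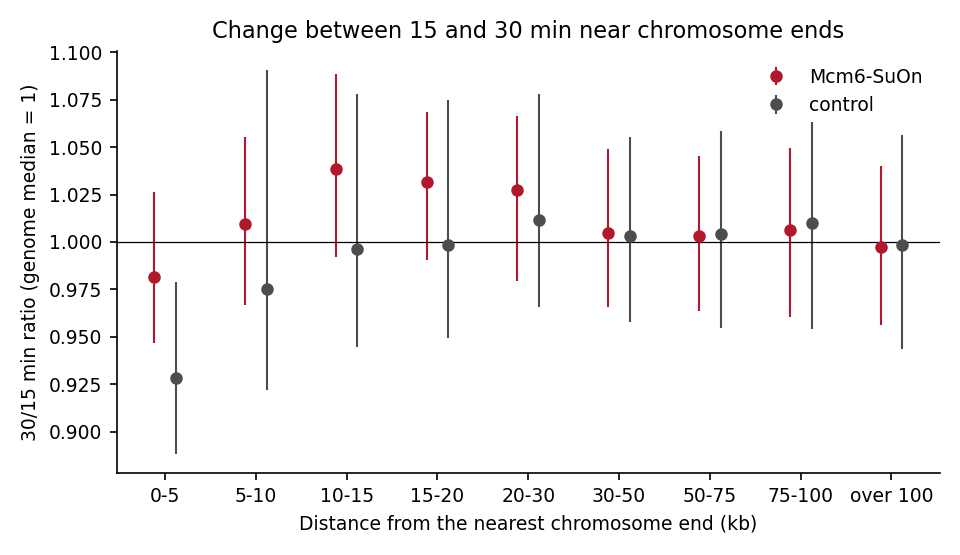
Median 30/15 ratio (vertical axis, genome median at 1) by distance from the nearest chromosome end in kb (horizontal axis) in Mcm6-SuOn (red) and control (grey), with bars from the lower to the upper quartile over windows. Mcm6-SuOn is highest at 10 to 15 kb, at 1.039, and the control is lowest within 5 kb, at 0.928.

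Ordering windows by how much copy number the control had gained at 15 min separated the Mcm6-SuOn ratio little. In 5 equal classes of the control 15 min profile, the median ratio in Mcm6-SuOn was 0.996, 0.994, 1.000, 1.002 and 1.007, in order of increasing control level. The difference of the highest against the lowest class was 0.011, and without the outer 30 kb of each chromosome it was 0.003. Ordered by the control 30 min profile, the medians were 0.978, 0.992, 1.005, 1.007 and 1.020, and the difference was 0.042. By the control 40 min profile, an order added after the values were seen, they were 0.973, 0.991, 1.001, 1.012 and 1.027, and the difference was 0.054. The share of windows past 1.1-fold higher was 14.6% in the highest and 1.73% in the lowest of these last classes, against 6.82% of all windows. None of these orders shares a library with the Mcm6-SuOn ratio. The class difference was thus larger with the later control profiles than with the 15 min one, and this could not be tested.

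Outside the zones, single windows reached ratios farther from 1 than the zones did. The 3 highest were chromosome XV 574501 to 575500, with 1098 reads at 30 min and 702 at 15 min and a ratio of 1.285 (1.167 to 1.414), chromosome X 741501 to 742500 at 1.254 (1.138 to 1.380) and chromosome XVI 856501 to 857500 at 1.250 (1.145 to 1.367). In the control these windows had 1.044, 0.946 and 1.081. The 3 lowest were chromosome XI 351501 to 352500, with 1241 reads at 30 min and 1290 at 15 min and a ratio of 0.790 (0.730 to 0.854), chromosome II 560501 to 561500 at 0.796 (0.732 to 0.866) and chromosome XI 368001 to 369000 at 0.801 (0.740 to 0.867). Running medians around the lowest 3 were 0.987, 0.981 and 0.986, so their neighbours did not share the low value. Among the highest, the running median was 1.036 at the window of chromosome XV and 1.138 at that of chromosome XVI, whose neighbours were thus high as well, and the window of chromosome X had none. Each of the 6 ratios rests on 1 window chosen as the extreme of many, and its interval does not allow for that choice.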

How the data were processed

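Genomic DNA was sequenced on Illumina HiSeq, per the labels' design text, and 1 library stood in each group of genotype and time. Coordinates are those of sacCer2, a build named in the submitters' processing notes. Which aligner, read filters, counter and smoother were used is not given in the sources used here. The authors deposited, for 0 min, unnormalized read counts of overlapping 1000 bp windows in steps of 500 bp. For later times the authors deposited a ratio of later to 0 min reads per window, the same scaled by chromosome, and a smoothed form, as read from the headers and from how the columns relate. The lowest read count behind a value was 601, and windows listed at 0 in either library were left out. These are 5.04% of windows in Mcm6-SuOn.

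The first ratio at 30 min was divided by that at 15 min and by the genome median (1.218 in Mcm6-SuOn before scaling). Reads were recovered as that ratio times the 0 min count, which gave whole numbers within the rounding of the ratio in 100% of the low-count windows where this could be tested (in Mcm6-SuOn, 157 for the later and 83 for the earlier time). Pooled ratios use every second window, so that each read counts once. Their exact binomial intervals at 95% cover counting error only, since reads with no molecular identifier may be copies of 1 molecule. A site is a window of the smoothed profile that no window up to 5 kb away exceeds and whose prominence reaches 0.1. Python 3.11.15, numpy 2.4.6, pandas 2.3.3 and scipy 1.17.1 were used, and the zone and spread calculations were tested on simulated data.

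Regions named were the 8 zones with the most extreme pooled ratio and the 3 longest of each kind, the 3 most extreme single windows outside zones in each direction, and the extreme chromosomes. The members and lists were chosen with earlier results of these data known. No annotation of the build was used here, so that no gene or origin is placed in a region and no sequence is shown. Alternatives were the deposited column, the read minimum, window overlap, chromosome XII, chromosome ends, scaling, zone settings, site sets and the ranking profile. Sites and ranks from the control 40 min profile were added after the data were seen.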

Additional observations from a re-analysis of the deposited data

Results flagged for a closer look

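The zone at chromosome IV 402501 to 409500 stood out because the genotypes moved in opposite directions there. The 30/15 ratio was 0.914 in Mcm6-SuOn (0.885 to 0.944, 8052 reads at 30 min and 7232 at 15 min) and 1.078 in the control (1.047 to 1.111). The difference was not tested, since there is 1 library for each genotype and time, and the intervals cover counting error only. The zone is 1 of 19 named zones. Others outside the named ones also went opposite ways. Among all zones, the whole control interval lay below 1 in 10 of 125 zones of gain and above 1 in 5 of 106 zones of loss.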

How the results depend on the processing

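With 1 library in each group, no replicate could be left out. No paired analysis was possible because the labels give no replicate numbers and no result comes from a test. Of 90 recomputed values, 53 stayed within counting error (for counts, within 1.5 times), 34 differed by more without turning direction, and 3 reversed. The ratio at early sites, 0.994, reversed with sites from control 30 min (1.004), from Mcm6-SuOn 40 min (1.009) and from control 40 min (1.019), and was 0.987 with a site prominence of 0.05. Beside early sites, 1.023 in the report, the same site sets gave 1.010, 1.007, 1.014 and 1.015, the column scaled by chromosome gave 1.016 and the authors' smoothed column 1.020. The smoothed column also gave an SD over windows of 0.0537, 302 windows past 1.1-fold higher and 20 lower, 68 zones of loss, 0.031 for the outer 30 kb against the rest (0.025 in the report's setting) and a spread over that of the control of 0.596. Scaling by chromosome gave an SD of 0.0891, 0.030 for the outer 30 kb and 0.686 for the spread over the control's. A minimum of 1000 reads gave an SD of 0.0884, a difference between highest and lowest control 15 min class of 0.00861 and a spread over the control's of 0.644. Without chromosome XII the SD was 0.0897. Without the outer 30 kb the class difference was 0.00261, by control 30 min it was 0.042 and by control 40 min 0.054. The outer 15 kb differed from the rest by 0.014. Zones of gain and loss numbered 207 and 212 with a limit of 3%, 17 and 7 with one of 10%, and 203 and 200 with at least 5 windows. Past 1.2-fold, 72 windows were higher and 27 lower. Every second window gave 793 higher and 696 lower, which follows from using fewer windows. Except as stated, the cause of these shifts was not tested. Depth limits single windows, where counting alone gives an SD of 0.057 on the log2 scale.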

Other observations

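Windows with very high 0 min counts had a pooled ratio above 1 in Mcm6-SuOn and below 1 in the control. The 4 windows with more than 5 times the median 0 min count in both genotypes all lay on chromosome XII, between 459001 and 461500. Their pooled 30/15 ratio was 1.040 in Mcm6-SuOn (1.0315 to 1.0478, on 141705 reads at 30 min and 111891 at 15 min) and 0.938 in the control (0.931 to 0.945, on 147056 and 140726 reads). These windows overlap in a single place, and the intervals are narrow because it holds many reads. They cover counting error only, and the difference between genotypes was not tested.

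The stretch of 187 windows on the right arm of chromosome III that has raised read counts in the Mcm6-SuOn libraries was slightly lower than the rest of that chromosome in Mcm6-SuOn and close to it in the control. Its pooled ratio was 0.984 in Mcm6-SuOn (0.978 to 0.991) and 0.973 in the control (0.966 to 0.981), and the rest of the chromosome was at 0.997 in Mcm6-SuOn (0.992 to 1.002) and 0.974 in the control (0.970 to 0.979).

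The 30/15 ratio was higher where 0 min counts were low in both genotypes, although each genotype's own count cancels in its ratio. In 5 equal classes of the control 0 min count, from low to high, the Mcm6-SuOn median was 1.010, 1.004, 1.002, 0.995 and 0.989. In the control the medians over these classes were farther apart, at 1.039, 1.020, 1.000, 0.983 and 0.964. The Spearman correlation of the Mcm6-SuOn ratio over 22916 windows was -0.121 with the control count and -0.135 with the Mcm6-SuOn count. A further 74 Mcm6-SuOn windows had a value at 30 min and none at 15 min, and 0 had the reverse. The lowest read count kept was 601 at both times, while a median window held 1185 reads at 15 min and 1444 at 30 min. The part of this difference in depth was not tested.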
